A study of Mus musculus with 24 samples.

Results

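The Clcn5 intron cluster is a group of miRNA hairpins that lie together on the mouse X chromosome, led in these libraries by miR-532-5p. Its members were taken from a list of 10 mature miRNAs (mmu-miR-532-5p, mmu-miR-532-3p, mmu-miR-500-3p, mmu-miR-500-5p, mmu-miR-501-3p, mmu-miR-501-5p, mmu-miR-362-3p, mmu-miR-362-5p, mmu-miR-188-5p and mmu-miR-660-5p), named below without the species prefix. Of these, 9 had an entry among the 1978 mature miRNAs of the count table, and miR-660-5p had none. The list was chosen by the lower values of miR-532 in Ago413-/- than in Ago413+/+ cells. The comparison of these genotypes is therefore given below as a description only, and its calls are no test of the members.

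Small RNA libraries were made from fractions enriched for pachytene/diplotene spermatocytes, which are meiotic cells late in the first prophase, or for round spermatids, the haploid cells that follow meiosis. The cells came from testes of male C57BL/6J mice 10 to 15 weeks old, wild type (Ago413+/+), heterozygous (Ago413+/-) or homozygous (Ago413-/-) for a deletion that takes out all of Ago1 and parts of Ago3 and Ago4, with 4 libraries of each genotype in each cell type. The deletion is constitutive, made by a cross with a Sox2-cre deleter, so cells other than germ cells carry it too. The paper states that testes of several mice went into 1 preparation for its single-cell libraries. For the fractions used here it gives no number of mice, so they may be pooled as well. The gene products of the deleted loci are not miRNAs, so the deletion could not be checked in these counts.

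miRNAs are cut from hairpins in longer transcripts, and a strand from either arm, named 5p or 3p, is held by an Argonaute protein, which it guides to messenger RNAs mainly by pairing through its seed, here bases 2 to 8. Hairpins in an intron can be made together with the host transcript, and Clcn5 encodes ClC-5, a chloride/proton exchanger of endosomes. Most genes of the X chromosome are silenced in pachytene spermatocytes, a state known as meiotic sex chromosome inactivation.

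The mature strands are shown because members of the cluster share seeds, and because the reads of near-identical strands can be hard to tell apart. RefSeq (assembly GRCm38.p6) gave a mature sequence for 8 of the 9 members in the table, all except miR-532-5p. They are written 5′ to 3′ with the seed in capitals.
mmu-miR-532-3p: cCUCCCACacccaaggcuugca
mmu-miR-501-3p: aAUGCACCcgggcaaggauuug
mmu-miR-500-3p: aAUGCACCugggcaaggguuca
mmu-miR-362-3p: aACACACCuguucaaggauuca
mmu-miR-362-5p: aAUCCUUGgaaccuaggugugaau
mmu-miR-500-5p: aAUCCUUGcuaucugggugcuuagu
mmu-miR-501-5p: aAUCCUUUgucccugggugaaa
mmu-miR-188-5p: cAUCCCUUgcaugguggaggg

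miR-500-3p and miR-501-3p had the same seed and differed at 4 of 22 positions, so the split of reads between them is uncertain. miR-500-5p and miR-362-5p shared another seed. The other 4 of the 8 strands had a seed of their own, and miR-532-5p was not compared. miR-532-3p differed from each of the other 7 strands at 13 positions or more. Outside the cluster, miR-329-3p had the seed of miR-362-3p but held only 18 counts over the 24 libraries, and miR-7061-3p, with the seed of miR-188-5p, had 0.

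All of the 5 hairpins found in the annotation lie on the minus strand of chromosome X (GRCm38.p6) in a stretch of 10815 bases. In the order of transcription they are Mir532 at chrX:7248402-7248497, Mir188 at chrX:7247989-7248056, Mir362 at chrX:7241982-7242046, Mir501 at chrX:7241243-7241351 and Mir500 at chrX:7237683-7237774. The gaps between neighbours are 345 bases from Mir532 to Mir188, 5942 bases to Mir362, 630 bases to Mir501 and 3468 bases to Mir500. All 5 fall in 1 intron, at chrX:7213011-7316658, of 3 of the 5 annotated Clcn5 transcripts, and none overlaps an exon of Clcn5. The Mir532 hairpin is shown because the cluster was chosen by its strands, with the 3p strand in capitals.
Mir532 hairpin: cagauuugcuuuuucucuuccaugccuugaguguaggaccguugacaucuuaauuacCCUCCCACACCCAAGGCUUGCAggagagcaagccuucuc

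The libraries held 182904 to 1072637 counts, and the smallest totals were those of Ago413-/- spermatocytes (182904 to 369491). Levels are given as CPM, the share of a library's counts in the usual depth-scaled unit, after TMM scaling, which adjusts each library for the makeup of its RNA. Where a strand had 0 counts, its level could be as high as that of 3 counts, or 2.74 to 19.96 CPM depending on the library, for counting error only. Of 36 pairs of replicate libraries none was alike within sampling noise. The labels do not tie libraries to separate animals, so p-values measure the spread between these samples, which may be partly technical. The Ago413+/- spermatocyte library of replicate 4 stood apart for several members, and the results that changed most without it are given where they occur. The Ago413-/- spermatocyte library of replicate 2, the smallest of all, stood apart too. Its chi-square per degree of freedom, a measure of how far a pair of libraries differ, was 215 to 255 within its group. Among the rest of that group it was 30.8 to 50.6. This library had 0 counts of miR-532-3p, miR-500-3p and both miR-362 strands.

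miR-532-5p and miR-501-3p made up most of the cluster. In Ago413+/+ spermatocytes miR-532-5p held 62.4% ± 3.38 (SD, n = 4) of the counts of the cluster and miR-501-3p held 29.02% ± 3.55. miR-532-5p was the 93rd and miR-501-3p the 124th most abundant of the 1978 miRNAs by mean level in that group. The 9 members together held 0.174% ± 0.0229 (SD, n = 4) of all counts in Ago413+/+ spermatocytes, 0.135% ± 0.0147 in Ago413+/- and 0.0473% ± 0.0144 in Ago413-/- spermatocytes. In round spermatids these shares were 0.185% ± 0.00803, 0.156% ± 0.0367 and 0.0812% ± 0.00825. The highest Ago413-/- share in each cell type, 0.0603% in spermatocytes and 0.0923% in round spermatids, was below the lowest share of both other genotypes, 0.123% in either cell type. The low miR-532 values behind the choice of the cluster are part of these shares. Without the miR-532 strands the shares were 0.0605%, 0.0448% and 0.0223% in spermatocytes and 0.0734%, 0.0487% and 0.0396% in round spermatids, in the same order of genotypes.

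Only 6 members passed the filter on low counts (10 or more in 3 or more libraries of a fit), in each cell type and over all libraries, and the others could not be compared. miR-501-5p had 0 to 7 counts in a library, miR-188-5p had 0 to 2 and miR-500-5p had 0 to 2. miR-188-3p, the other strand of the Mir188 hairpin, had 0 counts in the whole table.

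**Figure D1:**
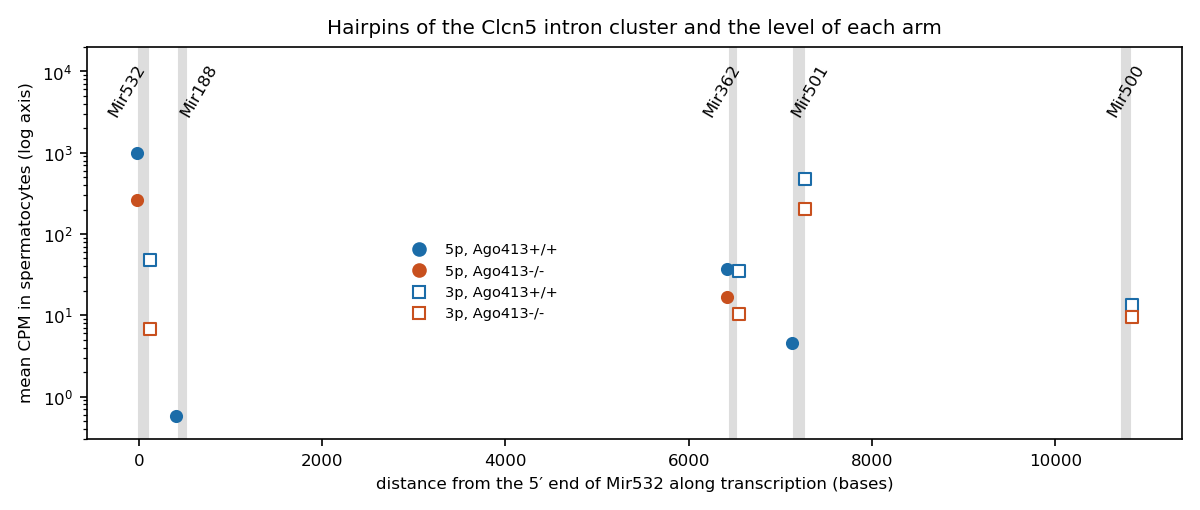
The 5 hairpins are drawn to scale as grey bands by their distance from the 5′ end of Mir532 along transcription, in bases, with symbols placed at either side of each band for the mean level of its strands in spermatocytes, on a log axis in CPM (n = 4, filled circles for 5p, open squares for 3p, blue for Ago413+/+, orange for Ago413-/-). Strands with a mean of 0 are not drawn. miR-532-5p, at 1006 CPM in Ago413+/+, and miR-501-3p, at 470 CPM, stand above all other strands.

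miR-532-5p was the most abundant member in every group, and its level separated the Ago413-/- libraries from all others in both cell types. The cluster was chosen for these low values. Of all miRNAs tested, 12.6% in spermatocytes and 15.5% in round spermatids had all Ago413-/- libraries below all of Ago413+/+. Against Ago413+/- these shares were 5.94% and 14.8%. In spermatocytes miR-532-5p stood at 1008, 974, 1072 and 971 CPM in replicates 1 to 4 of Ago413+/+. The Ago413+/- libraries had 741, 834, 832 and 810 CPM. In Ago413-/- the values were 244, 166, 333 and 313 CPM, the library at 166 CPM being also the smallest, with 25 counts of this strand. Each genotype's range of values lay apart from that of the others, with Ago413+/+ highest and Ago413-/- lowest.

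In round spermatids miR-532-5p had 1078, 825, 1313 and 1134 CPM in Ago413+/+. The Ago413+/- values were 1033, 747, 850 and 1214 CPM, which overlap those of Ago413+/+. Ago413-/- round spermatids had 437, 459, 483 and 375 CPM, all below the other genotypes. Ordered by mean, the groups ran from Ago413+/+ round spermatids (1088 CPM ± 201.5, SD, n = 4) through Ago413+/+ spermatocytes (1006 ± 46.8), Ago413+/- round spermatids (961 ± 206), Ago413+/- spermatocytes (804 ± 43.7) and Ago413-/- round spermatids (439 ± 46.4) to Ago413-/- spermatocytes (264 ± 75.4). Neighbours among the first 4 groups overlapped, whereas the last pair of groups overlapped neither each other nor any other group.

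miR-532-3p, the less abundant strand of the same hairpin, also had its lowest mean level in Ago413-/- in both cell types. Its values in spermatocytes were 71.4, 43.8, 46.7 and 31.7 CPM in Ago413+/+. In Ago413+/- they were 44.4, 62.4, 49.4 and 9.32 CPM. Ago413-/- spermatocytes had 7.80, 0, 14.8 and 4.81 CPM, from 3, 0, 4 and 1 counts. All 4 Ago413-/- values were below those of Ago413+/+, but the Ago413+/- library of replicate 4, with 3 counts, fell among them. Without that library the Ago413+/- mean was 52.1 CPM, above the 48.4 CPM of Ago413+/+ and not below it as with all 4 libraries (41.4 CPM).

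In round spermatids miR-532-3p had 73.2, 32.9, 47.4 and 38.4 CPM in Ago413+/+. The Ago413+/- libraries had 49.4, 38.4, 60.7 and 67.4 CPM. In Ago413-/- it fell to 9.98, 8.35, 15.5 and 2.15 CPM, from 6, 3, 12 and 1 counts. The Ago413-/- values lay below every value of the other genotypes, while those of Ago413+/+ and Ago413+/- overlapped.

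miR-501-3p, the other abundant strand of the cluster, had its highest mean level of each cell type in Ago413+/+, and its Ago413+/- and Ago413-/- values overlapped. In spermatocytes it had 448, 571, 474 and 387 CPM in Ago413+/+. The Ago413+/- libraries had 261, 204, 261 and 596 CPM, the last being replicate 4. Ago413-/- spermatocytes had 242, 193, 233 and 135 CPM, all below Ago413+/+ but overlapping Ago413+/-. Without replicate 4 the Ago413+/- mean was 242 CPM in place of 331 CPM, and those 3 libraries also lay below all of Ago413+/+. In round spermatids the values were 541, 809, 636 and 572 CPM in Ago413+/+. Those of Ago413+/- were 220.8, 247, 377 and 507 CPM. The Ago413-/- values of 459, 234, 452 and 265 CPM fell within the range of Ago413+/-, and both groups lay below all 4 Ago413+/+ libraries.

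miR-500-3p, miR-362-5p and miR-362-3p were near the limit of what these libraries can resolve. miR-500-3p had group means of 8.79 to 20.2 CPM and at most 24 counts in a library, and its genotypes overlapped in each cell type. miR-362-5p had group means of 16.96 to 44.4 CPM, the lowest in Ago413-/- spermatocytes, and its genotypes overlapped too. miR-362-3p had 61.4, 27.4, 24.5 and 28.6 CPM in Ago413+/+ spermatocytes. In Ago413+/- it spread from 0 in replicate 4 to 129 CPM in replicate 2. Ago413-/- spermatocytes had 20.8, 0, 11.1 and 9.62 CPM, below every Ago413+/+ library. In round spermatids its mean levels were 41.7 CPM in Ago413+/+, 65.6 CPM in Ago413+/- and 24.2 CPM in Ago413-/-, and the ranges overlapped.

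**Figure D2:**
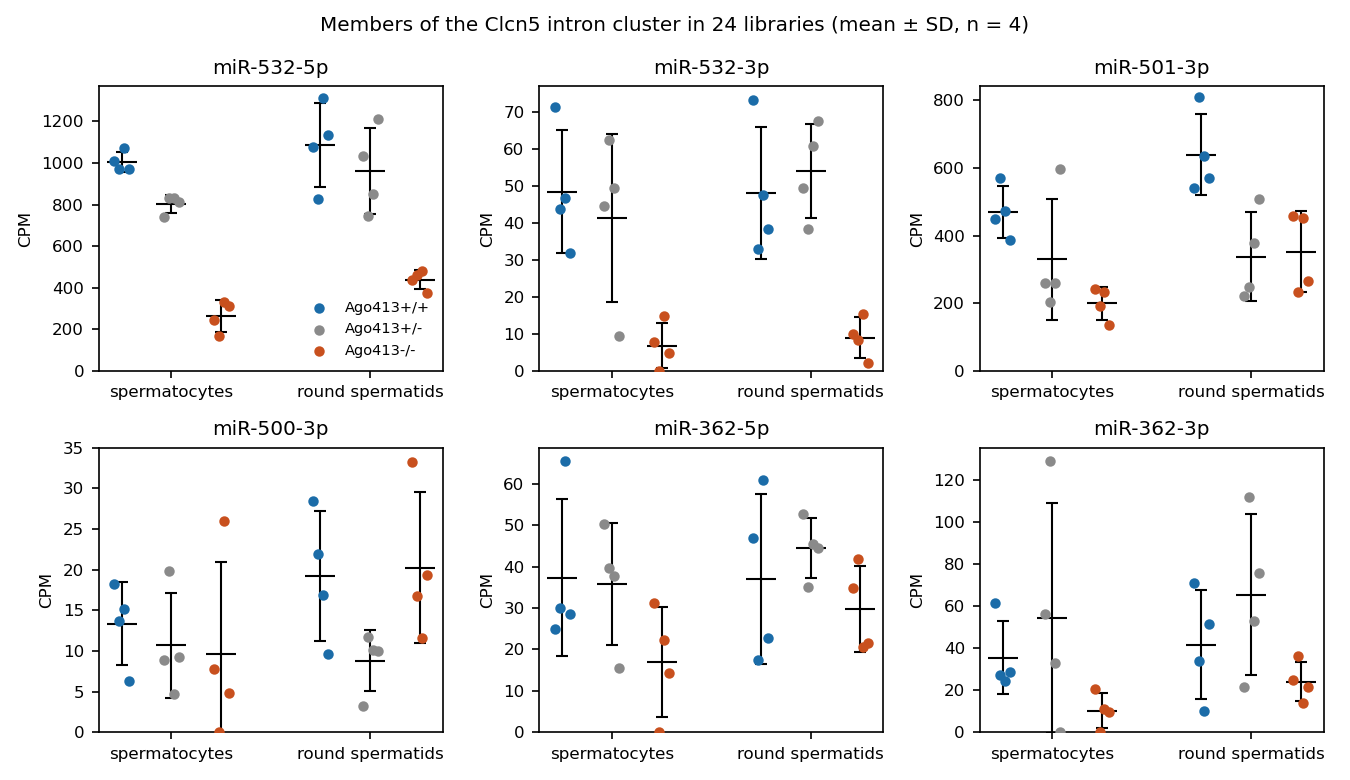
Levels in CPM of the 6 members that passed the filter are plotted for each of the 24 libraries, by cell type and genotype (blue Ago413+/+, grey Ago413+/-, orange Ago413-/-), with replicates 1 to 4 from left to right and black bars for the mean ± SD (n = 4). The Ago413-/- values of miR-532-5p, for which the cluster was chosen, lie at 166 to 483 CPM. All other values of this strand lie at 741 CPM or above, whereas miR-500-3p and miR-362-5p overlap between genotypes.

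In Ago413-/- against Ago413+/+, the comparison behind the choice of the cluster, miR-532-5p was lower by a log2 fold change of -1.94 (SE 0.30) in spermatocytes and -1.15 (SE 0.23) in round spermatids. For miR-532-3p the log2 fold changes were -2.65 (SE 0.66) and -2.13 (SE 0.44). miR-501-3p had -1.23 (SE 0.37) and -0.70 (SE 0.31), miR-362-3p -1.56 (SE 0.91) and -0.75 (SE 0.53), miR-362-5p -1.0002 (SE 0.59) and -0.08 (SE 0.40), and miR-500-3p -0.41 (SE 0.69) and 0.22 (SE 0.45). A miRNA was called where its adjusted p was under 0.05 and it changed by 1 or more on the log2 scale. By this rule 2 members, the miR-532 strands, were called lower in spermatocytes, where 3.22% of the 404 miRNAs tested were called lower, and the same 2 in round spermatids, where 8.69% of 426 were. All 4 Ago413-/- libraries lay below all 4 Ago413+/+ libraries for 4 members in spermatocytes (12.6% of all miRNAs tested) and for 3 in round spermatids (15.5%). These counts follow from the way the members were chosen and nothing is read from them.

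How the heterozygous cells compare with wild type was not used in the choice, although it shares the Ago413+/+ libraries. The choice favoured high miR-532 values in those libraries, so lower miR-532 values in Ago413+/- may follow in part from it. No member was called between Ago413+/- and Ago413+/+ in either cell type, and edgeR's quasi-likelihood test called 0% of all miRNAs in spermatocytes and 0% in round spermatids. At an unadjusted p under 0.05 there were 13 of 404 miRNAs in spermatocytes, with no member among them, and 68 of 426 in round spermatids, among them miR-501-3p and miR-500-3p. DESeq2 called 0 and 8 miRNAs, none of them a member.

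miR-532-5p was not called between these genotypes, with a log2 fold change of -0.28 (SE 0.29) in spermatocytes, although all 4 Ago413+/- libraries lay below the Ago413+/+ libraries there, as they did for 1.73% of all miRNAs. In round spermatids the log2 fold change of miR-532-5p was -0.09 (SE 0.22). In spermatocytes miR-501-3p had a log2 fold change of -0.48 (SE 0.36), which went to -0.87 without Ago413+/- replicate 4 (adjusted p = 0.628 by edgeR's quasi-likelihood test), and miR-532-3p had -0.15 (SE 0.51), which turned to 0.21. The largest heterozygous differences of the cluster were those of the strands with the shared seed in round spermatids. miR-501-3p had a log2 fold change of -0.85 (SE 0.31), with all 4 libraries below Ago413+/+, which held for 2.58% of all miRNAs, and an adjusted p of 0.230 by edgeR's quasi-likelihood test. miR-500-3p had -1.05 (SE 0.49) with an adjusted p of 0.310. Neither passed the test.

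The comparison of Ago413-/- with Ago413+/- asks how homozygous differ from heterozygous mutants, and shares the Ago413-/- libraries with the choice of the cluster. That choice favoured low miR-532 values in these libraries. The p-values of the miR-532 strands against Ago413+/- are therefore likely too small and are no independent support. In spermatocytes miR-532-5p fell by 1.66 on the log2 scale (SE 0.30, adjusted p = 0.00472, edgeR's quasi-likelihood test). It was the only member called, where 1.98% of the 404 miRNAs were called lower and 2.23% in either direction. It was also the only member with no overlap between the genotypes, which was the case for 5.94% of all miRNAs with Ago413-/- below. miR-532-3p had a log2 fold change of -2.49 (SE 0.67, adjusted p = 0.0621) and miR-362-3p had -2.30 (SE 0.89, adjusted p = 0.126), and neither passed. Without the Ago413+/- library of replicate 4, which had 3 counts of miR-532-3p and 0 of miR-362-3p, both were called, with adjusted p = 0.00586 and 0.0191, and the calls among all miRNAs rose from 9 to 57. DESeq2 also called these 3 members, among 57 miRNAs. The log2 fold changes of miR-362-5p (-0.98, SE 0.60), miR-501-3p (-0.75, SE 0.37) and miR-500-3p (-0.19, SE 0.72) did not pass, and that of miR-501-3p went to -0.33 without the same library.

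In round spermatids both strands of miR-532 fell in Ago413-/- against Ago413+/-, with p-values that the choice of the cluster affects in the same way. miR-532-5p fell by 1.06 on the log2 scale (SE 0.23, adjusted p = 0.00567) and miR-532-3p fell by 2.39 (SE 0.44, adjusted p = 0.00271, edgeR's quasi-likelihood test). They were 2 of 6 members tested, where 7.28% of the 426 miRNAs were called lower and 12.4% in either direction. They were also the 2 members without overlap, beside 14.8% of all miRNAs with Ago413-/- below. miR-362-3p, at a log2 fold change of -1.40 (SE 0.52, adjusted p = 0.0712), missed the threshold, which it passed with DESeq2, with library totals, without the filter, with only these 2 genotypes in the fit and without Ago413+/- replicate 1.

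The remaining members of the cluster were not called in this comparison. miR-501-3p had a log2 fold change of 0.15 (SE 0.31), which turned to -0.13 with library totals in place of TMM, and miR-500-3p had 1.27 (SE 0.50, adjusted p = 0.0822). miR-362-5p had -0.53 (SE 0.39). Over all miRNAs tested the median log2 fold change was 0.13 here, and 22 were called higher and 31 lower, against 3 higher and 54 lower with library totals, where the median moved to -0.10.

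Markers of other cells moved in the same libraries. In Ago413-/- round spermatids the summed level of the somatic gonad strands miR-202-5p and miR-202-3p was 9025 to 15964 CPM, against 2797 to 8395 CPM in Ago413+/- and 2498 to 8167 CPM in Ago413+/+, and 1 of the 2 was called higher against each genotype. The endothelial miR-126a pair summed to 1949 to 5853 CPM in Ago413-/-, 857 to 1159 CPM in Ago413+/- and 511 to 1988 CPM in Ago413+/+, and 1 of 2 was called higher in both comparisons. One of 3 peritubular strands was called higher too, at sums of 6078 to 7507 CPM against 3179 to 7387 CPM in Ago413+/- and 2646 to 10275 CPM in Ago413+/+. The blood list ranged from 103 to 4808 CPM in Ago413-/- round spermatids, 179 to 1154 CPM in Ago413+/- and 49.1 to 500.9 CPM in Ago413+/+, with 2 of 2 tested called higher against Ago413+/+ and 0 against Ago413+/-. None of the 3 spermatogonial markers, at sums of 8932 to 11506 CPM in Ago413-/- round spermatids, 9409 to 14199 CPM in Ago413+/- and 5304 to 8782 CPM in Ago413+/+, and none of the 3 markers of the germ cell list, the strands miR-34b-5p, miR-34c-5p and miR-449a-5p typical of meiotic cells, was called in any comparison. The germ cell list summed to 70319 to 133724 CPM in Ago413-/- round spermatids, 86489 to 185940 CPM in Ago413+/- and 59188 to 108289 CPM in Ago413+/+. Of all these markers only miR-144-3p of blood was at 0 in a whole group, Ago413+/- spermatocytes. No marker was called between spermatocytes and round spermatids either, so these lists do not check the one cell type's label against the other's. In spermatocytes no marker of any list was called between genotypes, but the sums differed. The germ cell list summed to 18716 to 78802 CPM (mean 54427) in Ago413-/- spermatocytes, 36442 to 137479 CPM (mean 101296) in Ago413+/- and 58028 to 111989 CPM (mean 88788) in Ago413+/+. The blood list summed to 459 to 2866 CPM in Ago413-/- spermatocytes, all above the 71.4 to 347 CPM of Ago413+/- and overlapping the 21.9 to 2407 CPM of Ago413+/+, and the sums of the other lists overlapped between genotypes. The part of these cells in the lower miR-532 values was not tested. In such enriched fractions fewer cells of a type and less RNA per cell cannot be told apart.

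**Figure D3:**
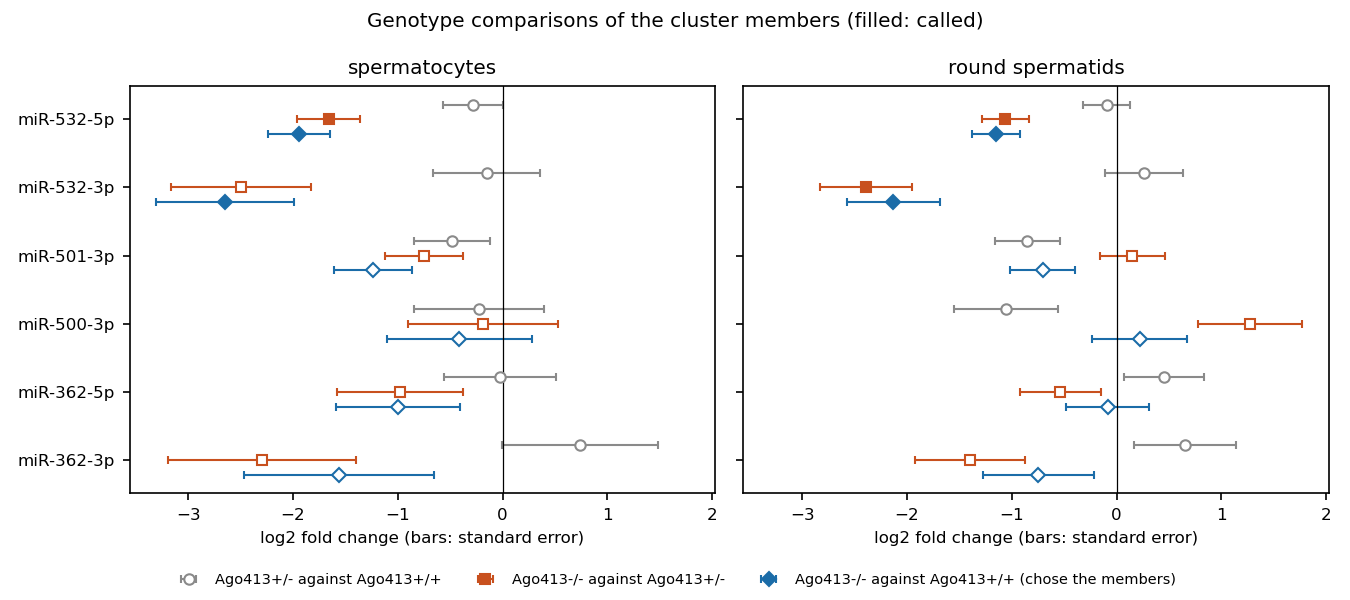
Log2 fold changes of the 6 members that passed the filter are plotted with their standard errors for spermatocytes (left) and round spermatids (right), grey for Ago413+/- against Ago413+/+, orange for Ago413-/- against Ago413+/- and blue for Ago413-/- against Ago413+/+, which chose the members. Filled symbols are called. Among the orange symbols they are miR-532-5p in both cell types and miR-532-3p in round spermatids, from Ago413-/- libraries that also chose the members. Every grey symbol is open.

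Whether the genotype differences themselves varied between the cell types was tested by the interaction of genotype and cell type over 24 libraries. No member passed for Ago413-/- against Ago413+/- or for Ago413+/- against Ago413+/+, and in each case edgeR's quasi-likelihood test left 0 of 450 miRNAs under an adjusted p of 0.05, with 23 and 12 at an unadjusted p under 0.05. DESeq2 was not run on the interaction. The differences between the log2 fold changes in round spermatids and spermatocytes were 0.47 (SE 0.34) for miR-532-5p and -0.05 (SE 0.97) for miR-532-3p in Ago413-/- against Ago413+/-.

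The step from spermatocytes to round spermatids was compared within each genotype. No member was called in Ago413+/+ or Ago413+/-, where edgeR's quasi-likelihood test called 0% of the 450 miRNAs, with 10 and 15 at an unadjusted p under 0.05, and DESeq2 called 0 in both. In Ago413+/+ the log2 fold changes of the members ran from -0.12 for miR-362-5p to 0.45 for miR-500-3p, and miR-532-5p had 0.11 (SE 0.24). In Ago413+/- they ran from -0.38 for miR-500-3p to 0.34 for miR-532-3p.

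In Ago413-/- all 6 log2 fold changes from spermatocytes to round spermatids were above 0, but no member was called, beside 4.89% of all miRNAs. The median was 0.77 over the 6 members, 0.31 over 64 other X-linked miRNAs, of which 24 were below 0, and 0.05 over all 450. Low miR-532 values in the Ago413-/- libraries of both cell types chose the cluster, so the values of miR-532-5p here are no independent support. miR-532-5p had 0.72 (SE 0.25, adjusted p = 0.0761, edgeR's quasi-likelihood test), and its 4 round spermatid libraries all lay above the 4 spermatocyte libraries, as did those of 6.67% of all miRNAs. miR-501-3p had 0.81 (SE 0.35, adjusted p = 0.143).

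Since miR-532-5p and miR-501-3p come from the same intron, their ratio within a library gives a comparison that needs no scaling. This ratio was chosen after the levels had been seen, and low miR-532 values in Ago413-/- chose the cluster. Its p-values in both cell types therefore describe these libraries and are no independent support. In spermatocytes the log2 ratio of miR-532-5p to miR-501-3p was 1.17, 0.77, 1.17 and 1.32 in Ago413+/+. In Ago413+/- it was 1.501, 2.03, 1.67 and 0.44. In Ago413-/- it was 0.02, -0.21, 0.51 and 1.20. The genotypes overlapped, for Ago413+/- through replicate 4 alone, since its other 3 libraries lay above all libraries of both other genotypes. The difference of Ago413-/- from Ago413+/- was -1.03 (p = 0.0857, adjusted over 4 tests 0.114) and that of Ago413+/- from Ago413+/+ was 0.30 (p = 0.457, exact two-sided permutation tests, n = 4). Without replicate 4 of Ago413+/- these differences were -1.35 and 0.62, each with an exact permutation p of 0.0571, the smallest that 3 libraries against 4 can give.

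In round spermatids the log2 ratio was 0.99, 0.03, 1.04 and 0.99 in Ago413+/+. In Ago413+/- it was 2.22, 1.59, 1.17 and 1.26. In Ago413-/- it was -0.07, 0.97, 0.10 and 0.50. All 4 Ago413+/- libraries lay above all libraries of the other genotypes, while Ago413+/+ and Ago413-/- overlapped. The difference was 0.80 for Ago413+/- from Ago413+/+ and -1.19 for Ago413-/- from Ago413+/-, each with p = 0.0286 and 0.0571 after adjustment over 4 tests (exact two-sided permutation tests), where 0.0286 is the smallest p that 4 libraries against 4 can give. Between Ago413-/- and Ago413+/+ the mean log2 ratio differed by -0.73 in spermatocytes and -0.39 in round spermatids.

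**Figure D4:**
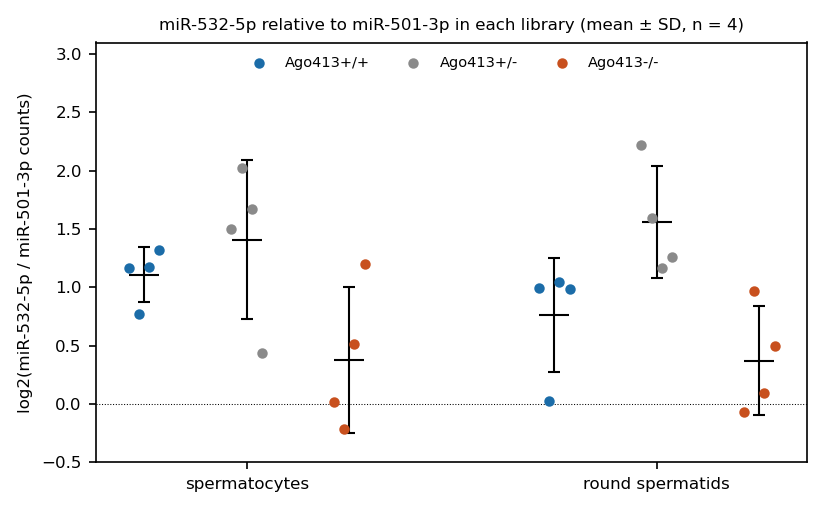
The log2 ratio of miR-532-5p to miR-501-3p counts is plotted for each library by cell type and genotype (blue Ago413+/+, grey Ago413+/-, orange Ago413-/-), with replicates 1 to 4 from left to right and black bars for the mean ± SD (n = 4). In round spermatids the Ago413+/- values, 1.17 to 2.22, lie above all others.

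The choice of strand was read from the arms of each hairpin as log2((5p count + 0.5) / (3p count + 0.5)). Mir532 gave mostly its 5p strand, with 93.0% to 100% of its counts in every library, and Mir501 mostly its 3p strand, with at most 2.63% of its counts from 5p. Mir500 had more 3p than 5p counts in each group, and Mir362 gave both strands, with 102 counts of 5p and 87 of 3p in Ago413+/+ spermatocytes. Between round spermatids and spermatocytes the ratio differed by 0.12 for Mir532 (p = 0.676) and by -0.81 for Mir501 (p = 0.0387, adjusted over both hairpins 0.0775, two-sided permutation tests within genotype over 12 libraries each), so neither passed. The ratio of Mir501 rests on 0 to 7 counts of miR-501-5p in a library. The arms of Mir500 and Mir362 had fewer than 10 counts together in some libraries and were not tested. By genotype the mean log2 ratio of Mir532 was 4.41, 4.50 and 5.05 in Ago413+/+, Ago413+/- and Ago413-/- spermatocytes, and 4.53, 4.14 and 5.67 in round spermatids, from only 8 and 22 counts of miR-532-3p in the Ago413-/- groups.

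The members were set beside the other X-linked miRNAs, since the cluster lies on the X chromosome. The cluster was chosen for low miR-532 values in the Ago413-/- libraries, so lower medians of the members there follow in part from the choice. In Ago413-/- against Ago413+/- spermatocytes the median log2 fold change was -1.32 over the 6 members that passed the filter, -0.15 over 58 other X-linked miRNAs and -0.04 over all 404. Of the 58, 1 was called, and it was lower, beside 1.98% of all 404 called lower. In round spermatids the medians were -0.80 over the 6 members, 0.12 over 61 other X-linked miRNAs and 0.13 over all 426. Of the 61, 4 were called lower and 4 higher, beside 31 lower and 22 higher of all 426. In Ago413+/- against Ago413+/+ the members' medians were -0.19 in spermatocytes and 0.08 in round spermatids, beside 0.04 and -0.10 over the other X-linked miRNAs.

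The 5 miRNAs outside the cluster whose levels followed miR-532-5p most closely over the 24 libraries were, by Spearman's rho of log2 CPM, miR-743b-5p (0.927), miR-504-5p (0.882), miR-30d-5p (0.878), miR-409-5p (0.874) and miR-185-5p (0.873). The genes of miR-743b and miR-504 are X-linked, and those of miR-30d, miR-409 and miR-185 lie on chromosomes 15, 12 and 16. The libraries share their genotypes and depths, so rho describes these samples only. Among all miRNAs ranked this way, miR-532-3p was in place 8 (0.804). Both miR-532 strands were chosen for low values in Ago413-/-, so this place follows in part from the choice. The other members that passed the filter came later, miR-501-3p in place 51 (0.598), miR-362-5p in place 58 (0.573), miR-362-3p in place 91 (0.428) and miR-500-3p in place 179 (0.110), and the last 3 have few counts.

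The nearest of these in level was miR-743b-5p, with 1404 CPM ± 182 (SD, n = 4) in Ago413+/+ spermatocytes, 1024 ± 168 in Ago413+/- and 593 ± 249 in Ago413-/-, and 1529 ± 276, 1325 ± 201.8 and 735 ± 195 CPM in round spermatids. It was not called in Ago413-/- against Ago413+/- in either cell type, with log2 fold changes of -0.83 (SE 0.33, adjusted p = 0.136) and -0.77 (SE 0.24, adjusted p = 0.0362, edgeR's quasi-likelihood test). miR-409-5p, of another chromosome, fell by 3.70 (SE 0.61) in spermatocytes and fell by 2.77 (SE 0.50) in round spermatids on the log2 scale, and was called in both. In round spermatids miR-504-5p (-2.07, SE 0.55) and miR-185-5p (-1.07, SE 0.27) were called too, and miR-30d-5p (-0.67, SE 0.19) was not. In spermatocytes miR-185-5p (-1.09, SE 0.39) and miR-30d-5p (-0.63, SE 0.31) were not called.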

How the data were processed

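Small RNA reads of 24 libraries, 4 of each genotype and cell type, had been trimmed by the authors with Trim Galore, which the submitters' processing notes name too, and matched to mature mouse miRNAs of miRBase with miRDeep2. The deposited values are raw counts per mature miRNA, with no normalization. A genome build for this matching is not given in the sources used here. Hairpins, mature sequences and Clcn5 transcripts were placed with RefSeq and GENCODE annotations of GRCm38.p6. Reads that match several near-identical miRNAs may be split among them. Amplified reads carry no molecular identifiers, so intervals and floors cover counting error only.

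Samples were grouped by the labels. Counts were tested with edgeR 4.0.16 in R 4.3.3, with TMM scaling and the quasi-likelihood test, after removing miRNAs that did not reach 10 counts in 3 libraries of the fit (404 in spermatocytes, 426 in round spermatids, 450 over all). Genotypes were compared in fits of the 12 libraries of a cell type, and cell types in a fit of 24 libraries in 6 groups, without covariates. P-values were adjusted by the Benjamini-Hochberg method within each comparison, across all miRNAs tested. A call needs an adjusted p under 0.05 and a change of 1 or more on the log2 scale. Printed CPM are from the fit of 24 libraries. Fold changes are from each fit's own scaling, and standard errors were recovered from the fold change and its F statistic. Arm ratios, with a pseudocount of 0.5, were compared with 100000 resamples. The fits were tested on simulated data. A miRNA was placed on a chromosome by the name of its gene in RefSeq, which gave a place to 444 of 450.

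The miRNAs named are all members, other arms of their hairpins, miRNAs sharing a seed, the 5 nearest to miR-532-5p by Spearman's rho, and marker lists. The members, lists and tests were chosen with earlier results of these data known. The alternatives were DESeq2 1.42.0, RLE scaling, library totals, no filter or 10 counts in every library, the adjusted p alone, miR-500-3p and miR-501-3p summed, the replicate block, other sets of libraries in a fit, a term for library numbers in the labels over 60, a pseudocount of 5 and leaving out each library.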

Additional observations from a re-analysis of the deposited data

Results flagged for a closer look

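A sample was marked where its gap to the nearest of the other 3 libraries of its group was larger than Dixon's 95% critical value. This was so for 4 of the 54 groups of 4 libraries examined, where chance gives about 2.7. miR-500-3p had 3.30 CPM in Ago413+/- round spermatids of replicate 1, against 10.0 to 11.7 CPM in the others, from 2 counts against 4 to 7. miR-362-3p had 61.4 CPM in Ago413+/+ spermatocytes of replicate 1, against 24.5 to 28.6 CPM. The log2 ratio of the arms of Mir532 was 6.22 in Ago413+/- spermatocytes of replicate 4, against 3.73 to 4.04. The log2 ratio of the arms of Mir501 was -5.04 in Ago413+/- round spermatids of replicate 2, against -6.66 to -6.49.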

How the results depend on the processing

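The calls of miR-532-5p in Ago413-/- against Ago413+/- held under every alternative in both cell types. The same Ago413-/- libraries chose the cluster, so this is no independent support. In round spermatids the log2 fold change of miR-532-5p ran from -1.17 to -1.0015 without single libraries, close to the threshold of 1. In spermatocytes the members called rose from 1 to 3 with DESeq2 and without the filter, and to 2 with all 24 libraries in 1 fit. Leaving out single libraries gave 1 to 3, with 3 only without Ago413+/- replicate 4. All calls numbered 9 in the fit reported, 4 with only the 2 genotypes compared, 40 without the filter, 49 with 24 libraries and 57 with DESeq2. In round spermatids the members called fell from 2 to 1 with at least 10 counts in every library, which left miR-532-3p untested, in both null comparisons. Against Ago413+/- they were 2 to 3 without single libraries. All calls were 29 instead of 53 with 24 libraries, 3 of them higher, and 35 with 10 counts in every library. Calls against Ago413+/+, the comparison behind the choice, are a description only. Against Ago413+/+ the members called were 1 to 2 in spermatocytes without single libraries, with miR-532-3p lost without Ago413+/+ replicate 1, 2 or 3 or Ago413-/- replicate 1 or 4. miR-501-3p, not called there in the fit reported, was called under 4 of 11 alternatives, with DESeq2, library totals, 24 libraries and 10 counts in every library. DESeq2 called 61 and 24 libraries 67 miRNAs instead of 18.

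The labels do not say whether same-numbered libraries are matched, and the numbers were not taken to pair the samples. Deviations of same-numbered libraries from their group means correlated at -0.39 to 0.42 between genotypes of a cell type. Between the cell types of a genotype they correlated at -0.16 to 0.42, above 0 in 9 of 12 pairs and above 0.1 in 6, and the library numbers in the labels were consecutive in 11 of 12. With the replicate block the members called in Ago413-/- against Ago413+/- stayed at 1 in spermatocytes and 2 in round spermatids, and no other count of members changed.

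Of the members that were not called, several changed sign around 0. In Ago413+/- against Ago413+/+ spermatocytes miR-362-5p turned from -0.02 to 0.014 with DESeq2, 0.013 with RLE scaling, 0.0023 with the replicate block and 0.0092 with only the 2 genotypes. miR-501-3p turned to -0.13 in Ago413-/- against Ago413+/- round spermatids with library totals and to -0.019 between cell types in Ago413+/- with only that genotype's 8 libraries. miR-532-5p turned to -0.024 between cell types in Ago413+/+ with library totals. Without single libraries the log2 fold changes ran, in Ago413+/- against Ago413+/+ spermatocytes, from -0.30 to 1.17 for miR-362-3p, -0.30 to 0.43 for miR-362-5p, -0.96 to 0.066 for miR-500-3p and -0.56 to 0.21 for miR-532-3p. They ran from -0.25 to 0.022 for miR-532-5p in Ago413+/- against Ago413+/+ round spermatids, from -1.15 to 0.49 for miR-500-3p in Ago413-/- against Ago413+/- spermatocytes and from -0.064 to 0.33 for miR-501-3p in the same comparison of round spermatids.

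Between the cell types they ran from -0.073 to 0.67 for miR-362-3p, -0.44 to 0.27 for miR-362-5p and -0.33 to 0.20 for miR-532-3p in Ago413+/+, from -0.26 to 1.13 for miR-362-3p, -0.65 to 0.23 for miR-500-3p and -0.21 to 0.45 for miR-501-3p in Ago413+/-, and from -0.020 to 0.85 for miR-532-3p in Ago413-/-.

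The arm ratios depended on the pseudocount. With 5 in place of 0.5 the difference between cell types passed for Mir532 (0.45, adjusted p = 0.0460) and Mir501 (-0.89, adjusted p = 0.0108, permutation tests). In Ago413+/- libraries alone it reversed to -0.36 for Mir532 and 0.031 for Mir501. Without single libraries it ran from -0.066 to 0.27 for Mir532 and from -1.01 to -0.64 for Mir501, which passed without Ago413-/- spermatocyte replicate 1, Ago413+/- round spermatid replicate 2 or Ago413-/- round spermatid replicate 2. The cause of these changes was not tested. Removing the miR-532 strands moved the share of the cluster to 0.0605%, 0.0448% and 0.0223% in Ago413+/+, Ago413+/- and Ago413-/- spermatocytes and 0.0734%, 0.0487% and 0.0396% in round spermatids. The ratio of miR-532-5p to miR-501-3p kept its direction in all 4 comparisons with a pseudocount of 5 and without single libraries, alternatives chosen after seeing the data. Depth kept miR-501-5p, miR-500-5p and miR-188-5p out of all tests. Among the 6 members tested it limits miR-532-3p, miR-500-3p and both miR-362 strands most, since a single read is a large part of their counts in Ago413-/- spermatocytes.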
